A study of Mus musculus with 2 samples.

Results

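The 9 genes described here encode the pore-forming alpha-1 subunits of the voltage-gated calcium channels outside skeletal muscle: Cacna1a, Cacna1b, Cacna1c, Cacna1d, Cacna1e, Cacna1f, Cacna1g, Cacna1h and Cacna1i. They were taken by name from the 23420 gene rows of the count table, all 9 were found, and all 9 passed the filter on low counts. The genes were chosen by name with no threshold, but the family was selected on the knockout against wild-type differences of these same libraries. Their differences between the genotypes are therefore given as a description, and no support is drawn from them. RNA was counted in the retinal pigment epithelium (RPE)-choroid of untreated mice 11 to 13 months old, in 3 animals labelled AhR -/- and 3 labelled AhR +/+, with RNA of 2 eyes in each library. The knockout animals carry the disrupted receptor allele (AhR, aryl hydrocarbon receptor) in every cell (strain B6.129-AhRtm1Bra/J), and the controls are C57BL6/J, so any other difference between these strains goes with the genotype. The anterior segment and the retina had been taken off before RNA was extracted. The comparison asks which transcripts of this tissue differ when the receptor, a ligand-activated transcription factor, is disrupted.

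A voltage-gated calcium channel opens when the membrane depolarises and lets calcium into the cell. The alpha-1 subunit forms the pore and senses the voltage. Its amount at the membrane and its gating are set by beta, alpha-2-delta and, in some channels, gamma subunits. L type channels (Cacna1c, Cacna1d, Cacna1f) drive contraction, secretion and the steady release of transmitter from photoreceptors. P/Q, N and R type channels (Cacna1a, Cacna1b, Cacna1e) trigger release at fast synapses, and T type channels (Cacna1g, Cacna1h, Cacna1i) open at small depolarisations. The pigment epithelium uses L type channels in its secretion, the smooth muscle of choroidal vessels uses them to contract, and photoreceptors use the Cacna1f channel at their synapse.

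The sequence bound by the receptor with its partner Arnt has the core GCGTG, which was looked for in the promoters of the members on both strands (read as CACGC on the other strand). RefSeq start-site windows of the GRCm38.p6 build, 250 bases before to 50 after the start, were at hand for 6 of the 9 genes, in 9 windows; Cacna1a, Cacna1g and Cacna1h had no entry. The core was in 3 of the 9 windows, those of Cacna1b (6 matches), Cacna1d (2 in 1 of its 2 windows) and Cacna1i (1), against 32.4% of all 32851 windows in the table. The 250 bases before the Cacna1b start site (chr2:24763153-24763402, minus strand) and before the GC-rich start site of Cacna1c (chr6:119108496-119108745, minus strand) are shown because both genes had knockout-labelled libraries that lay below every wild-type library. One holds all 6 matches, in capitals, and the other holds none.
Cacna1b: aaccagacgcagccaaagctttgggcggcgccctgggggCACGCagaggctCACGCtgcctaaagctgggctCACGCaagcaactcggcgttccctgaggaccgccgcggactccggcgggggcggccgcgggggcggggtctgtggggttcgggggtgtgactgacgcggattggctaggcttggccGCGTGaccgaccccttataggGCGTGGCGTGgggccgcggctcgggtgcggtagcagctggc
Cacna1c: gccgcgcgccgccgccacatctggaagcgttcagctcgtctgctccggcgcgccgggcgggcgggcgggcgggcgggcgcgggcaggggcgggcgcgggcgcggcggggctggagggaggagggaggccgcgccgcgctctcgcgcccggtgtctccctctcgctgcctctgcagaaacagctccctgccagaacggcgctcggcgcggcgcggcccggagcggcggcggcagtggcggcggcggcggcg
A match is a run of letters and not a bound site, and the Cacna1c window shows only that these letters are not in it.

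The libraries held 18058725 to 28692624 reads counted in genes. Levels are given as CPM, the count of a gene scaled to the depth of its library, and in each sentence the values of a genotype follow the order of animals 1, 2 and 3. For Ahr itself the knockout-labelled libraries had 41.4, 45.4 and 40.6 CPM and the wild-type ones 19.7, 20.2 and 26.0. A count over the whole gene does not show whether the targeted part is missing, and it is higher where the label says knockout, so the libraries are called knockout-labelled and every direction rests on the labels. The pigment epithelium markers Ttr and Rgr were abundant (3721 to 22341 CPM over both genes and all libraries), while Best1, another such marker, stood at 1.72 to 3.55 CPM. Although the retina had been removed, all 12 photoreceptor markers were counted, and they summed to 9507 to 20550 CPM. In such whole tissue, fewer cells of a type and less RNA per cell cannot be told apart.

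All 9 alpha-1 genes had a log2 fold change below 0 in the knockout-labelled libraries, against 48.8% of all 15796 genes tested. Their median was -0.43, against 0.01 over all genes tested. In 3 of the 9 (Cacna1g, Cacna1c and Cacna1b) every knockout-labelled library lay below every wild-type library, a pattern that 9.96% of all genes tested showed in that direction, and in the other 6 the groups overlapped. Over all genes tested the same pattern was seen 1573 times in that direction and 1585 times in the other. Of the 9, 0 passed edgeR's quasi-likelihood test at a Benjamini-Hochberg adjusted p under 0.05, against 0.0506% of all genes tested (0.0253% in the lower direction), and 2 had an unadjusted p under 0.05, against 14.2%. DESeq2 and the edgeR exact test each called 1 of the 9, Cacna1g, against 2.61% and 2.23% of all genes, and limma-voom called 0 of the 9, against 0.0823%. Cacna1g was also the 1 member called with upper-quartile factors (0.0950% of all genes called), with no filter (0.122%), with a filter on CPM (0.108%) and without knockout-labelled animal 1 (4.95%). Of the 9, 0 were called with a GC correction (0.0317%), a replicate block (0.00633%), sex as a covariate (0.00633%), or without wild-type animal 1 (0.0559%) or 2 (0.00620%). Because the members were picked with this contrast in view, nothing is read from these counts.

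**Figure D1:**
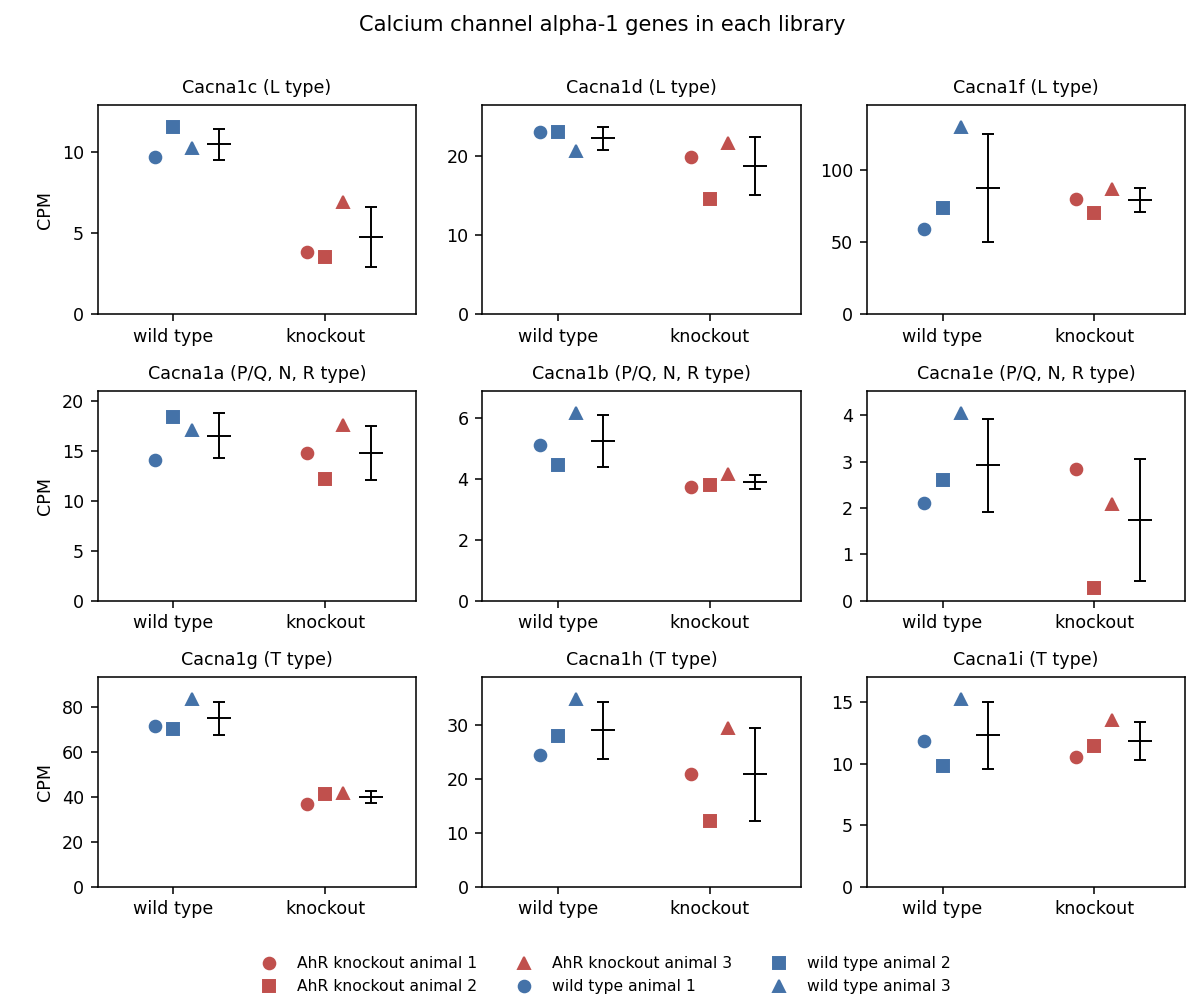
CPM (y axis) of each alpha-1 gene in the 3 wild-type and 3 knockout-labelled libraries (x axis), with 1 row of panels per channel type; symbols are animals, and the bar beside each group is its mean and SD. Cacna1g, Cacna1c and Cacna1b have groups that do not overlap, and Cacna1f has 1 high wild-type library, animal 3, at 129 CPM.

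Gene positions below are those of GRCm38 (mm10) in GENCODE M21. Among T type genes, Cacna1g (chr11:94408391-94474198, minus strand), whose channel gives the rapidly opening T current, had groups that lay farthest apart in CPM. It had 37.0, 41.2 and 41.8 CPM in the knockout-labelled group and 71.6, 70.2 and 83.5 in the wild type. The gap between the groups was wider than the range within either. The means were 40.0 ± 2.59 and 75.1 ± 7.30 CPM (SD, n = 3 each), and the log2 fold change was -0.91 (SE 0.13). In edgeR's quasi-likelihood fit Cacna1g lay at an adjusted p of 0.0502, just outside the threshold. In the alternatives its adjusted p ran from 7.25e-06 (DESeq2) to 0.290 (replicate block). The authors' deposited table gives Cacna1g a log2 fold change of -0.92, with the sign turned to knockout over wild type, and an FDR of 0.000381. It is the single member under an FDR of 0.05 in the authors' deposited table, where 2.37% of 16561 genes are, 0.749% being lower in the knockout.

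Cacna1h (chr17:25374285-25433783, minus strand), a T type channel of neurons, smooth muscle and endocrine cells, had 21.0, 12.1 and 29.4 CPM in the knockout-labelled group and 24.4, 28.0 and 34.8 in the wild type. Knockout-labelled animal 2 was lowest and animal 3 lay within the wild-type range, so the groups overlapped. The log2 fold change was -0.48 (SE 0.29), and it was -0.21 without knockout-labelled animal 2 and -0.81 without knockout-labelled animal 3. Exons of Cacna1h share 158 bases with the mast cell tryptase gene Tpsg1 on the opposite strand, which was counted 0 to 16 times per library. Cacna1i (chr15:80287238-80398279, plus strand), the T type channel gene best known from brain, had 10.6, 11.4 and 13.5 CPM in the knockout-labelled group and 11.8, 9.79 and 15.2 in the wild type. The knockout-labelled values lay inside the wild-type range, with a log2 fold change of -0.06 (SE 0.23).

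Among L type genes, Cacna1c (chr6:118587240-119196418, minus strand) encodes the channel through which smooth and cardiac muscle take up calcium to contract. It had 3.85, 3.51 and 6.89 CPM in the knockout-labelled group and 9.66, 11.5 and 10.3 in the wild type. The wild-type libraries were close together, and knockout-labelled animal 3 lay between animals 1 and 2 and the wild type. The means were 4.75 ± 1.86 and 10.5 ± 0.95 CPM (SD, n = 3 each), and the log2 fold change of -1.14 (SE 0.32) was the largest of the 9. The counts behind it are small, 64 to 297 reads per library. The authors' deposited table lists Cacna1c at -1.09 with an FDR of 0.134.

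Cacna1d (chr14:30039939-30491455, minus strand), whose channel opens at less depolarised voltages than that of Cacna1c and is used in endocrine and sensory cells, had 19.9, 14.7 and 21.7 CPM in the knockout-labelled group and 23.1, 23.1 and 20.6 in the wild type. Knockout-labelled animal 2 stood apart and the other libraries lay within a narrow band. The log2 fold change was -0.25 (SE 0.19), and -0.10 without that animal. Exons of Cacna1d share 589 bases with Chdh, a choline-oxidising enzyme gene on the opposite strand, at 3.98 to 8.12 CPM. The strand setting of the counting is not given in the sources used here, so reads of such overlaps cannot be assigned with certainty.

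Cacna1f (chrX:7607083-7635196, plus strand), the L type channel gene of photoreceptor synapses, had the highest CPM of the 9 genes. It had 79.9, 70.2 and 86.5 CPM in the knockout-labelled group and 59.2, 73.4 and 129 in the wild type. The lowest and the highest library were both wild type, so the genotypes did not separate. The log2 fold change was -0.15 (SE 0.25). Without wild-type animal 3 it turned to 0.23.

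The genes of the fast synaptic channels had lower CPM than Cacna1f and Cacna1g. Cacna1a (chr8:84388440-84640246, plus strand), the P/Q type gene, had 14.7, 12.1 and 17.5 CPM in the knockout-labelled group and 14.0, 18.4 and 17.1 in the wild type, with groups that overlapped (log2 fold change -0.15, SE 0.21). Cacna1b (chr2:24603887-24763152, minus strand), the N type gene, had 3.73, 3.79 and 4.15 CPM in the knockout-labelled group and 5.11, 4.46 and 6.15 in the wild type. Its groups lay apart by a small step, with 69 to 178 reads per library and a log2 fold change of -0.43 (SE 0.32). Cacna1e (chr1:154390731-154884501, minus strand), the R type gene, had 2.85, 0.27 and 2.09 CPM in the knockout-labelled group and 2.11, 2.60 and 4.04 in the wild type. Only 5 reads were counted in knockout-labelled animal 2, which sets the low end of that group. The log2 fold change was -0.73 (SE 0.74), with a range of -1.27 to -0.24 when 1 library was left out.

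**Figure D2:**
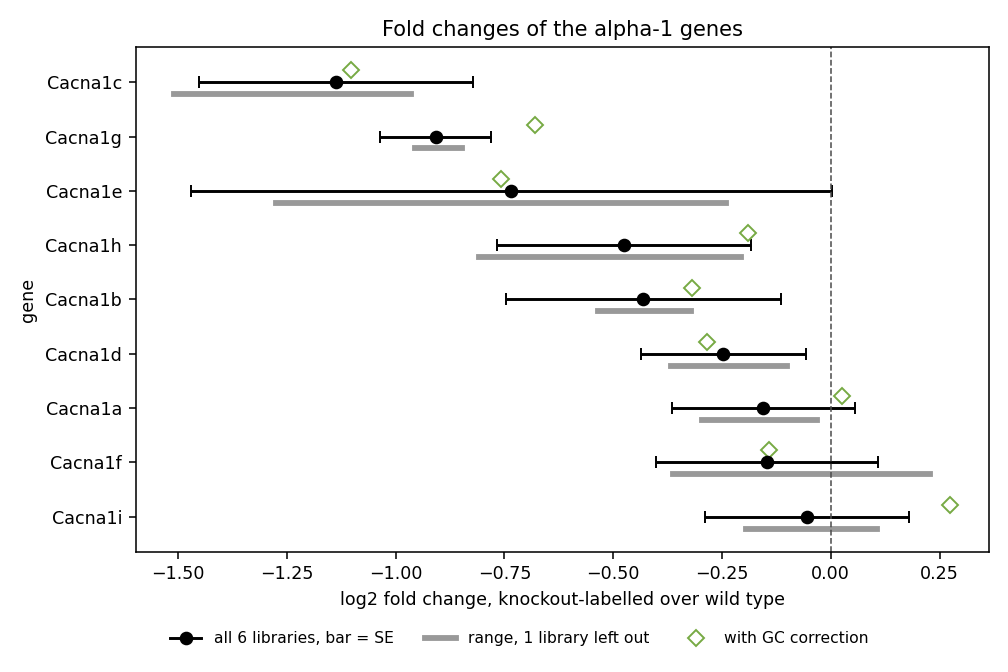
Log2 fold change, knockout-labelled over wild type (x axis), of each alpha-1 gene (y axis): filled points with SE bars are the fit to all 6 libraries, grey lines the range when 1 library was left out, and open diamonds the fit with a GC correction. Cacna1c and Cacna1g lie farthest below 0 at -1.14 and -0.91, and Cacna1i moves from -0.06 to 0.27 with the GC correction.

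The fold changes of several members moved with a correction for transcript GC content, which removes each library's trend of level on GC. The mean GC content of their transcripts ran from 49.2% in Cacna1d to 61.9% in Cacna1i. With the correction Cacna1g went from -0.91 to -0.68 and Cacna1h, at 60.9% GC, from -0.48 to -0.19. Cacna1a (56.9% GC) went from -0.15 to 0.027, and Cacna1i from -0.06 to 0.27. Cacna1c (52.8% GC) moved little, from -1.14 to -1.10, and Cacna1d, Cacna1e and Cacna1f moved by less than 0.05. The median of the 9 was -0.29 with the correction, with 7 of the 9 below 0.

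Levels of different genes were compared per length, as CPM per kilobase of the joined exons of each gene in GENCODE M21. Cacna1f was highest, with a mean of 9.14 ± 2.69 over the 6 libraries (SD), followed by Cacna1g at 5.68 ± 1.96 and Cacna1h at 2.56 ± 0.80. Cacna1d (1.62 ± 0.25), Cacna1a (1.37 ± 0.21) and Cacna1i (1.22 ± 0.20) formed a middle group. Cacna1b (0.46 ± 0.09), Cacna1c (0.36 ± 0.16) and Cacna1e (0.09 ± 0.05) were lowest.

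The order held between some neighbours only. The ranges over the 6 libraries lay apart between Cacna1g and Cacna1h, between Cacna1i and Cacna1b and between Cacna1c and Cacna1e. The other 5 neighbouring pairs had ranges that overlapped. Within libraries, Cacna1f was above Cacna1g in 5 of 6, the exception being wild-type animal 1 (6.52 against 7.07 CPM per kilobase). Cacna1h was above Cacna1d in 6 of 6 libraries and Cacna1a above Cacna1i in 4 of 6. Cacna1c has an annotated exon length of 21191 bases, 6666 of which at most are coding in 1 transcript, so its place depends on the length used. With the coding length or the longest transcript Cacna1c was above Cacna1b, and the order was otherwise as before.

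**Figure D3:**
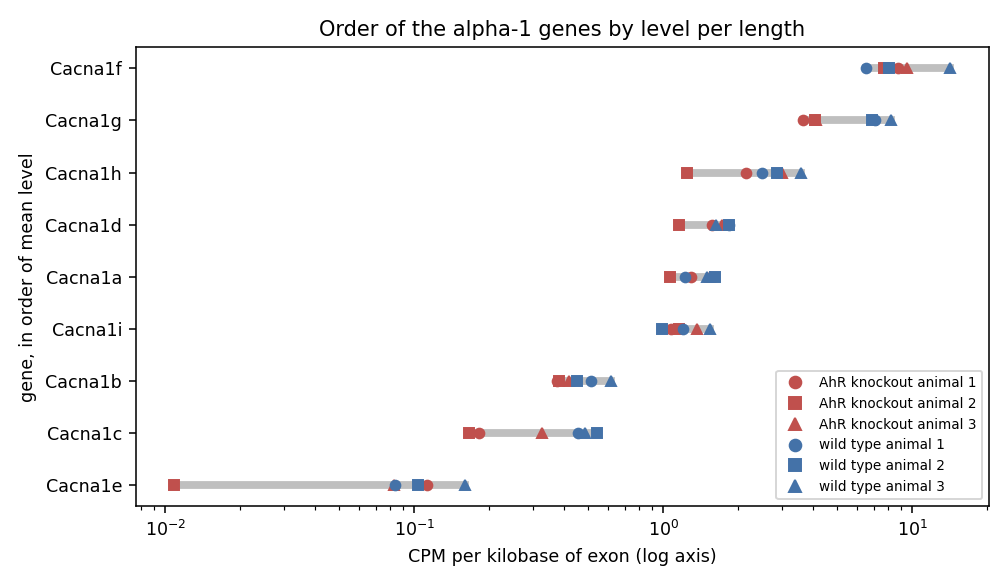
CPM per kilobase of exon (x axis, log scale) of the 9 alpha-1 genes, ordered by mean level (y axis); points are the 6 libraries and grey lines their range. Cacna1f and Cacna1g are highest and Cacna1e is lowest, with knockout-labelled animal 2 far below its other libraries.

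The mix of channel types differed between the groups on this scale. T type genes made up 35.8%, 38.1% and 38.5% of the summed level per kilobase of the 9 genes in knockout-labelled animals 1 to 3 and 50.3%, 46.1% and 41.7% in wild-type animals 1 to 3. The T type share was thus lower in each knockout-labelled library than in any wild-type library. The L type share ran the other way, at 52.3% to 54.9% against 41.1% to 51.1%, and the P/Q, N and R type share was alike at 8.57% to 9.27% against 7.11% to 9.24%. The T type share in wild-type libraries was lowest in animal 3, the library with the most Cacna1f and the most photoreceptor RNA. These shares follow from the values of Cacna1g and Cacna1f above and are no separate evidence.

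**Figure D4:**
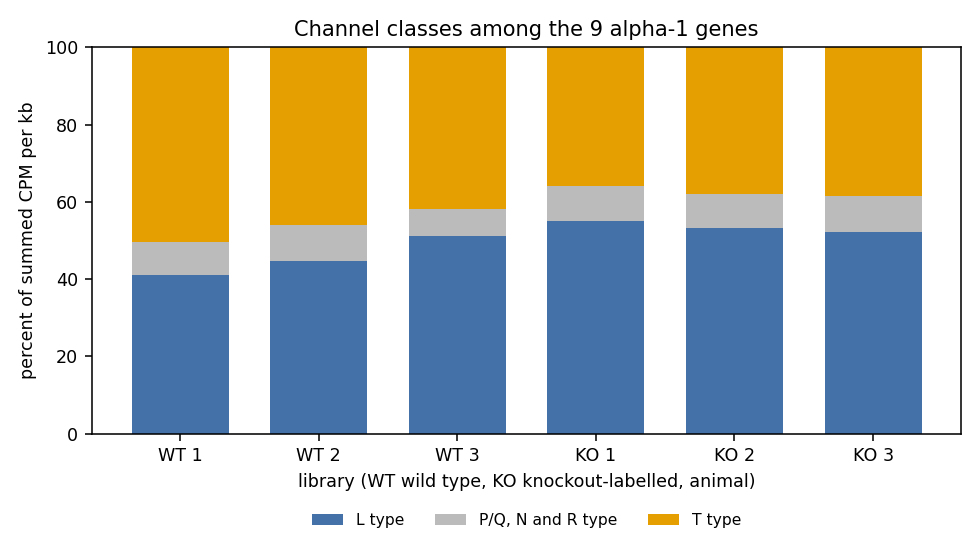
Percent of the summed CPM per kilobase of the 9 alpha-1 genes (y axis) in L type, P/Q, N and R type, and T type genes in each library (x axis). The T type part is 35.8% to 38.5% in knockout-labelled libraries and 41.7% to 50.3% in the wild type.

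Cacna1f had the same highest and lowest library as photoreceptor transcripts, but not the same order within the knockout-labelled group. The 12 photoreceptor markers summed to 15293, 13845 and 13639 CPM in the knockout-labelled group and to 9507, 10746 and 20550 in the wild type. Wild-type animal 3 was highest and wild-type animal 1 lowest in both that sum and Cacna1f. Among knockout-labelled libraries animal 3 was lowest in the sum and highest in Cacna1f. The part of photoreceptor RNA in the values of Cacna1f was not tested. Across the libraries Cacna1f spanned 2.18-fold in CPM, but 1.35-fold when set against the sum: it was 5.22, 5.07 and 6.34 CPM per 1000 CPM of photoreceptor markers in knockout-labelled animals and 6.23, 6.83 and 6.29 in the wild type.

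Known partners of the photoreceptor channel differed in how far they followed that sum. Cacna2d4, the alpha-2-delta subunit of that channel, had 89.5, 80.8 and 95.8 CPM in the knockout-labelled group and 70.8, 79.9 and 131 in the wild type, and spanned 1.28-fold against the photoreceptor sum. Cabp4, a calcium-binding protein that binds the Cacna1f channel, stood at 65.0, 55.5 and 57.6 CPM against 34.9, 43.4 and 82.1 CPM, and spanned 1.16-fold against that sum. Rims2, a release-site protein gene, spanned 1.53-fold in CPM and 1.44-fold against the sum, and it was lowest in wild-type animal 2, as was Cacnb2. For Cacna1g the span was 2.25-fold in CPM and 3.11-fold when set against the photoreceptor sum, and the ratio of Cacna1g to that sum was 2.42 to 3.06 CPM per 1000 in knockout-labelled and 4.06 to 7.53 in wild-type libraries. The ratio of Cacna1c to the sum spanned 4.26-fold. Cabp4 and Rims2 were chosen as examples after their values were seen.

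**Figure D5:**
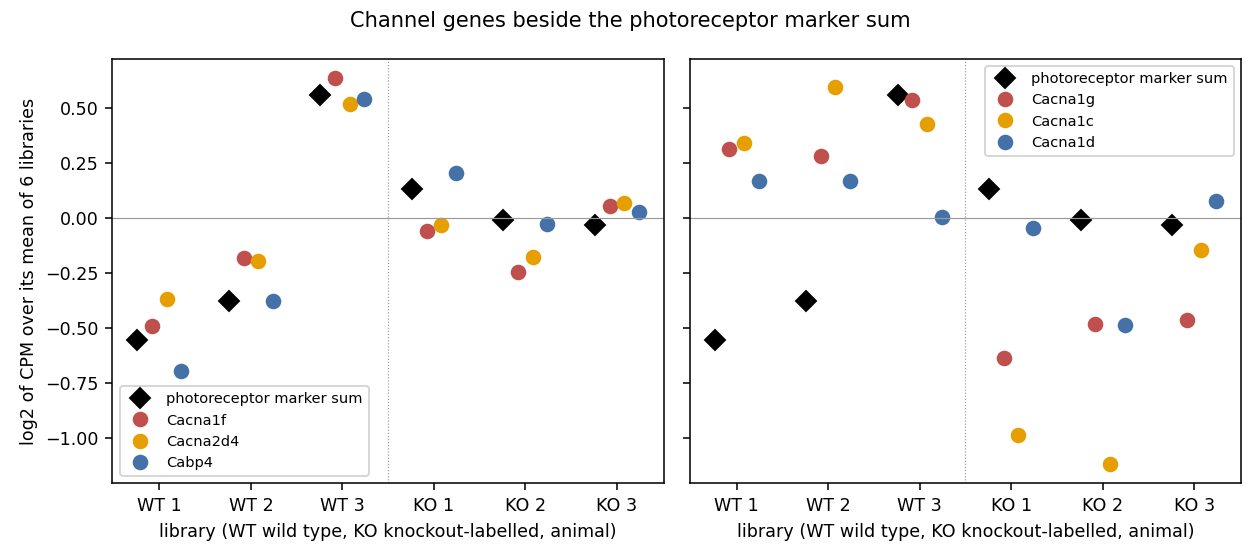
Log2 of CPM over the mean of the 6 libraries (y axis) in each library (x axis) for the summed photoreceptor markers (diamonds) beside Cacna1f, Cacna2d4 and Cabp4 on the left, and beside Cacna1g, Cacna1c and Cacna1d on the right. On the left all 4 measures are highest in wild-type animal 3 and lowest in wild-type animal 1; on the right Cacna1g and Cacna1c are lower in every knockout-labelled library.

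The sums of 3 marker lists of other cell types did not overlap between the genotypes. Taken gene by gene, 20.0% of all genes tested had groups apart, so nothing is read from this count. The 8 smooth muscle and pericyte markers, of cells that use Cacna1c, summed to 712 to 949 CPM in knockout-labelled and 990 to 1105 CPM in wild-type libraries. Of these 7 had a log2 fold change below 0, against 48.8% of all genes tested, and Des lay above at 0.08. Acta2 stood at 277 ± 58.1 against 349 ± 41.6 CPM and Pdgfrb at 165 ± 21.8 against 240.0 ± 27.5 CPM (SD, n = 3 each). Myh11 had groups that overlapped and a log2 fold change of -0.07. The low smooth muscle regulator Myocd was at 0 in knockout-labelled animals 2 and 3. At 0.67 CPM, knockout-labelled animal 1 lay inside the wild-type range of Myocd, 0.52 to 1.02 CPM. The 5 fibroblast markers summed to 7787 to 8305 against 8973 to 10936 CPM, with Dcn at 5842 ± 248 against 6418 ± 630 CPM and Col1a2 at 1299 ± 187 against 2033 ± 402 CPM (SD, n = 3 each). Of the 5, 4 had a log2 fold change below 0, against 48.8% of all genes tested. Lum had one above 0, at 395 ± 45.3 against 314 ± 37.2 CPM (SD, n = 3 each). The red cell markers summed to 55.7 to 1060 CPM in knockout-labelled and 4.29 to 33.7 CPM in wild-type libraries. Hba-a1 was at 0 in all 6, while Hbb-b1 stood at 10.3 to 212 CPM in knockout-labelled and 0.53 to 6.29 CPM in wild-type libraries. Reads aligned at more than 1 place enter no gene count, so the 0 does not show that Hba-a1 RNA was absent.

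The sums of the other lists overlapped between the groups. They were 617 to 1004 against 959 to 1013 CPM for 8 endothelial markers, 518 to 756 against 700 to 745 CPM for 7 Schwann cell markers and 838 to 969 against 616 to 1143 CPM for 8 neuronal markers. They were 20864 to 36345 against 27824 to 38324 CPM for 8 pigment epithelium markers, 7804 to 8959 against 5493 to 9303 CPM for 5 pigment cell markers and 3389 to 12176 against 2023 to 5195 CPM for 8 markers of cornea and conjunctiva. They were 303 to 456 against 373 to 468 CPM for 8 markers of inner retinal neurons, 2002 to 2505 against 1627 to 2579 CPM for 5 macrophage markers and 46.2 to 85.2 against 42.7 to 57.1 CPM for 4 mast cell markers. Those of cardiac-type muscle came to 7.58 to 58.9 against 9.44 to 36.1 CPM. The part of any of these cells in the values of Cacna1g, Cacna1c and Cacna1b was not tested.

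Genes named as auxiliary subunits of calcium channels were listed in full: 4 alpha-2-delta, 4 beta and 8 gamma genes, 16 in all and all tested. The gamma genes were taken by name, which does not show that each protein joins these channels. The counts and the median below include all 16. Of these, 0 passed in edgeR's quasi-likelihood test (0.0506% of all genes tested did) and 0 had an unadjusted p under 0.05 (14.2% of all genes). None passed in DESeq2 (2.61% of all genes), the exact test (2.23%) or limma-voom (0.0823%). The groups overlapped for all 16, against 20.0% of all genes tested with groups apart. The median log2 fold change was -0.09, with 9 below 0 and 7 above. Cacna2d4 (-0.08), the beta subunit gene Cacnb2 (-0.17), and the alpha-2-delta genes Cacna2d2 (-0.23) and Cacna2d1 (-0.33) had the highest CPM. Cacna2d1, which pairs with Cacna1c in muscle, had the lowest unadjusted p (0.16), with 19.6, 31.3 and 36.7 CPM in the knockout-labelled group and 37.2, 35.0 and 38.0 in the wild type.

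Of 21 genes of proteins that regulate the channels, 0 passed in edgeR's quasi-likelihood test (0.0506% of all genes), DESeq2 (2.61%), the exact test (2.23%) or limma-voom (0.0823%), and 1 had an unadjusted p under 0.05 (14.2%). The groups lay apart in 2 of the 21, against 20.0% of all genes. The gene with the low p, Calm3, encodes calmodulin, the calcium sensor bound to L and P/Q type channels. It had 903, 608 and 650 CPM in the knockout-labelled group and 875, 1057 and 996 in the wild type, and its log2 fold change was -0.44 (SE 0.18, edgeR adjusted p = 0.325). Calm2, another calmodulin gene, had 428, 491 and 443 CPM in the knockout-labelled group and 384, 351 and 400 in the wild type, with groups that lay apart (log2 fold change 0.26, SE 0.13, edgeR adjusted p = 0.410). Camk2d, a kinase switched on by calcium and calmodulin, stood at 118 to 130 against 120 to 141 CPM.

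Of 24 genes for calcium stores, store-operated entry and extrusion, 0 passed in edgeR's quasi-likelihood test (0.0506% of all genes), the exact test (2.23%) or limma-voom (0.0823%). An unadjusted p under 0.05 was seen in 4, 2 lower and 2 higher, a share near the 14.2% of all genes. DESeq2 called 1 (2.61% of all genes), Atp2b1, a calcium pump of the plasma membrane. Atp2b1 had 153, 186 and 169 CPM in the knockout-labelled group and 124, 113 and 126 in the wild type (log2 fold change 0.49, SE 0.13, edgeR adjusted p = 0.185). Its groups lay apart, as did those of 5 others of the 24, 2 higher and 4 lower in all, against 20.0% of all genes in either direction and 9.96% lower. The pumps of the endoplasmic reticulum Atp2a1 (log2 fold change 0.45, SE 0.45) and Atp2a2 (-0.10, SE 0.14) and the store release channel Itpr1 (-0.19, SE 0.16) had groups that overlapped. The median of this list was -0.10 and that of the channel regulators -0.09.

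Genes with the pattern most like that of a member were sought for Cacna1e and Cacna1c, which had the widest range of log2 CPM over the 6 libraries among members with a mean of at least 1 CPM (3.53 and 1.69). Likeness, which carries no test, was the root mean square difference of log2 CPM, each gene centred on its own mean over the 6 libraries. For Cacna1c the nearest were Mamstr (0.19), Gabra4 (0.20) and Srpx (0.21), with mean levels of 3.80, 6.47 and 7.63 CPM in knockout-labelled and 9.36, 12.2 and 14.0 CPM in wild-type libraries. For Cacna1e they were Sp7 (0.21), Zfp960 (0.23) and Hist4h4 (0.26), at 0.62 to 4.12 CPM on average.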

How the data were processed

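The deposited table holds whole-number read counts per gene for 6 animals, which the authors made with HTSeq after aligning to mm10 by TopHat and Bowtie, as the submitters' processing notes list. Their versions, the annotation and the strand setting: not given in the sources used here. The 5 tally rows were left out. A second table deposited by the authors gives p-values, FDR and log2 fold changes from edgeR, and the latter (wild type over knockout) were turned in sign.

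Counts were fitted with edgeR 4.0.16 in R 4.3.3 (filterByExpr with a minimum count of 10 and total of 15, TMM, glmQLFit and glmQLFTest, genotype as the single term), with Benjamini-Hochberg adjustment over 15796 genes and calls at an adjusted p under 0.05. CPM use TMM-adjusted library sizes. SE is the absolute log2 fold change over the square root of F. When the fit was tested on simulated data it recovered most of the changed genes with the right sign, and the false share of its calls was above the nominal threshold. The simulated spread between animals was smaller than in these libraries (biological coefficient of variation 0.28), and genes with few counts were left unchanged. The simulation thus does not show how many changes the fit misses here. No 2 libraries of a group agreed within counting noise (chi-square per degree of freedom of at least 28.9). Alternatives used limma 3.58.1, DESeq2 1.42.0, other factors and filters, a replicate block, sex, a GC correction (lowess, span 0.3, GENCODE M21 transcripts) and each library left out. Named were all 9 members, Ahr, Cacna1s and the most abundant and lowest-p genes of each channel list. The 2 most abundant markers of a list and the nearest patterns were also named. Added after their values were seen were Best1, Myocd, Des, Myh11, Cabp4, Calm2, Tpsg1, Chdh, Lum, Rims2, Stac3, Cacnb1, Cacng1 and Ryr1. The members and lists were chosen with earlier results of these data known. Slc8b1 was read from its older symbol Slc24a6, through RefSeq. Some genes that the naming rule covers are not reported here.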

Additional observations from a re-analysis of the deposited data

Results flagged for a closer look

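Alignments that HTSeq tallied as not unique, outside the genes, made up a larger share of the table in each knockout-labelled library than in any wild-type library. No comparison above uses them. Whether a read aligned at several places was tallied once or more is not given, so the share is not one of reads. The share was 25.1%, 23.6% and 22.9% in knockout-labelled animals 1 to 3, and 18.7%, 19.4% and 19.1% in wild-type animals 1 to 3. The means were 23.9% ± 1.08 and 19.0% ± 0.33 (SD, n = 3 each), with a two-sided exact permutation p of 0.1, the smallest that 3 against 3 can give. These alignments enter no count of a calcium channel gene.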

How the results depend on the processing

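The number of genes called over all genes was 8, and it was 15 with upper-quartile factors, 22 with no filter, 16 with the CPM filter, 433 with DESeq2, 13 with limma-voom, 352 with the exact test, 5 with the GC correction and 1 each with sex as a covariate and with the replicate block. It ran from 0 to 795 when 1 library was left out, the 795 without knockout-labelled animal 1. Of the 9 alpha-1 genes, 1 and always Cacna1g was called with upper-quartile factors (adjusted p = 0.0459), no filter (0.0284), the CPM filter (0.048), DESeq2 and the exact test, and 0 to 1 when 1 library was left out, the 1 being without knockout-labelled animal 1 (adjusted p = 0.0192). Cacna1g, Cacna1c, Cacna1b, Cacna1d, Cacna1e and Cacna1h stayed below 0 in all 16 alternatives. With the GC correction Cacna1a went to 0.027 and Cacna1i to 0.27. When 1 library was left out, the log2 fold change of Cacna1f ran from -0.36 to 0.23 and that of Cacna1i from -0.20 to 0.11. Calls ran from 0 to 2 for the channel regulators (Calm3 and Rem1) and from 0 to 2 for the store, entry and extrusion genes (Atp2b1 and Itpr2), the 2 in each without knockout-labelled animal 1, and DESeq2 called 1 of the latter. The cause of these changes was not tested. With the longest transcript or the coding length, 2 of the 9 genes changed place in the order by level. Same-numbered animals did not deviate together (correlations of -0.10 to -0.07, 0 of 3 knockout-labelled libraries closest to their own number). The replicate block thus pairs samples by a number, and the paired samples also share the sex given below. With the block 1 gene was called in place of 8. Animal 1 was female and animals 2 and 3 male in both groups, read from Xist and Y-linked genes. Counts were low for Cacna1e (5 to 117 reads per library), Cacna1b (69 to 178) and Cacna1c (64 to 297). The planned identity of the proteins was not run.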

Other observations

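Cacna1s, the alpha-1 gene of the skeletal muscle L type channel that is not among the 9, was counted in every library. It had 21.1, 31.3 and 19.9 CPM in the knockout-labelled group and 8.87, 15.7 and 25.9 in the wild type, with groups that overlapped (log2 fold change 0.51, SE 0.35, edgeR adjusted p = 0.552). Skeletal muscle markers other than Cacna1s summed to 1350, 2638 and 939 CPM in the knockout-labelled group and 617, 819 and 1969 in the wild type. Knockout-labelled animal 2 was highest and wild-type animal 1 lowest in that sum and in Cacna1s. Of the muscle genes in the channel lists, 3 that were chosen after their values were seen had the same highest and lowest library: the release channel gene Ryr1 stood at 36.0 and 12.7 CPM there, the calcium pump gene Atp2a1 at 867 and 201 CPM, and the gamma subunit gene Cacng1 at 6.42 and 1.24 CPM. Others did not: the triad gene Stac3 was lowest in knockout-labelled animal 1 (3.35 CPM), and the beta subunit gene Cacnb1 was lowest in knockout-labelled animal 2 (5.32 CPM) and highest in wild-type animal 3 (10.4 CPM). The sum spanned 4.27-fold and Cacna1s 3.53-fold over the libraries, and the ratio of Cacna1s to the sum spanned 1.78-fold. Myh13, a myosin of extraocular muscle, was at 0 in all 6 libraries. Reads aligned at more than 1 place enter no gene count, so the 0 does not show that Myh13 RNA or extraocular muscle was absent.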
